A study of Homo sapiens with 6 samples.

Results

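The genes for translation initiation factors (EIF symbols) and elongation factors (EEF symbols) were compared between A375 cells depleted of MMP9 and their controls. Members were the rows of the gene table whose symbol starts with EIF or EEF and a digit, without antisense symbols and without symbols that end in P and a number, which mark pseudogenes. This gave 64 of 18539 listed genes, of which 51 are EIF and 13 are EEF, and 29 pseudogenes were left out. All 64 passed the filter on low counts, EIF4E3 only through its shControl libraries. The pattern also leaves out the protein-coding genes EIF4EBP1, EIF4EBP2 and EIF4EBP3, which are described with the related genes, and it keeps EIF3J-DT, a noncoding transcript that encodes no factor.

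A375 is a human malignant melanoma line. The shMMP9 cells (3 libraries) carried a lentiviral pLKO.1 vector with a short hairpin RNA against the coding region of MMP9, a secreted gelatinase, and the shControl cells (3 libraries), described as mock-depleted, carried a control hairpin. Both were infected in 8 µg/ml polybrene, grown in 10% fetal bovine serum and selected for 2 weeks in 2 µg/ml puromycin. The depleted group rests on 1 hairpin sequence in 1 line, and no label says that the libraries of a group came from separate cultures, so a p-value here is set by how far these libraries scatter, and that scatter may be technical only.

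The listed genes held 21854124 to 25895684 estimated reads in shMMP9 libraries and 24319963 to 28005550 in shControl libraries. MMP9 itself had scaled counts of 16.2, 14.6 and 17.1 in shMMP9 and 26.1, 24.3 and 28.7 in shControl. Genes with an MT- symbol held 0.62 to 0.71% of reads in shMMP9 and 1.64 to 1.79% in shControl. Of 9 melanocytic markers 7 were listed, TYR and DCT were not, and their summed scaled count was 1184 to 1259 in shMMP9 and 497 to 524 in shControl, mostly SOX10; 4 of them rose, while MITF fell. PMEL and MLANA were near 0, with at most 1.96 and 0.753 in any library. Markers of keratinocytes (2 of 4 listed, KRT1 and TP63 not) summed to 18.2 to 21.3 in shMMP9 and 3.81 to 4.97 in shControl, nearly all KRT14, while KRT5 had at most 0.0397 in shMMP9 and 0.488 in shControl. Fibroblast markers (5 of 5) summed to 21.3 to 24.5 in shMMP9 and 43.4 to 50.3 in shControl. Endothelial markers (4 of 4) summed to 6.35 to 8.88 in shMMP9 and 49.0 to 57.4 in shControl. TIE1 fell and made up nearly all of the shControl sum. In shMMP9, TIE1 had 4.73, 5.08 and 3.88 and PECAM1 had 2.12, 2.62 and 1.4. CDH5 also fell, PECAM1 rose and VWF was not called. The part of these marker and MT- differences in the results was not tested. Among the controls, shControl replicate 1 stood apart: the chi-square per gene against the other controls was 13.3 and 9.21, while it was 3.9 between those and 2.48 to 4.54 within shMMP9.

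Translation starts when eIF2 brings the initiator tRNA to the small ribosomal subunit, eIF3 and eIF1 family proteins hold it open for scanning, and the cap-binding complex eIF4F (eIF4E, eIF4G and the helicase eIF4A) recruits the mRNA. The exchange factor eIF2B reloads eIF2 with GTP, and stress-activated kinases block that step by phosphorylating eIF2. In elongation, eEF1A delivers aminoacyl-tRNAs, the eEF1B proteins recharge eEF1A, and eEF2 moves the ribosome along the message. Many mRNAs of this machinery begin with a terminal oligopyrimidine (TOP) tract, a C at the cap followed by pyrimidines, through which mTORC1 signalling and the protein LARP1 control their translation and storage.

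Start sites are shown first, because calls are then counted by whether an annotated start of a gene opens with such a tract. No start was measured in these cells, and a gene whose start is listed slightly off can be read as holding none. RefSeq starts on GRCh38.p14 were found for 51 of the 64 members. The search asked for a C at the first transcribed base followed directly by at least 4 bases that are each C or T, on the transcribed strand only, at any listed start of a gene. Each line gives 12 bases before the start and 18 from it, 5′ to 3′ on the strand of the gene, with the tract in capitals. The first 7 genes fell in shMMP9 and hold a tract, EIF2A rose and holds one, and EIF5, EIF2B1 and EIF4G2 rose and hold none. The lines shown are a choice: of 38 members with a start and no tract, 12 fell and 7 rose.
EEF1A1: gccgtgaacgttCTTTTTCgcaacgggttt
EEF1B2: gtctcttcgggtCCTTTTTCCTCTCTTCag
EEF2: gacgtcagcgttCTCTTCCgccgtcgtcgc
EIF2S3: gtgatttccttcCTCTTTTggcaacatggc
EIF4A2: gggcgccgctgtCTTTTCagtcgggcgctg
EIF4B: cctcatccgggtCTTTTgcgttctctttcc
EIF3F: cgcttccgcctcCTTCTTTCTCgacaagat
EIF2A: cccgagcggtttCTCTTTCCgggacaacat
EIF5: gcggcgttgttcagtcagagcgagaacatt
EIF2B1: gggtacggaagtgcgccggaagtggggtgc
EIF4G2: gttgtcggaagcacttccctaacttgcgcc

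Windows on the plus strand are those of EEF1B2 at chr2:206159883-206159912, EIF2S3 at chrX:24054944-24054973, EIF4A2 at chr3:186783565-186783594, EIF4B at chr12:53006444-53006473, EIF3F at chr11:7987325-7987354, EIF2A at chr3:150546775-150546804 and EIF5 at chr14:103334225-103334254. Windows on the minus strand are those of EEF1A1 at chr6:73521015-73521044, EEF2 at chr19:3985446-3985475, EIF2B1 at chr12:123633669-123633698 and EIF4G2 at chr11:10807979-10808008. Tracts reached 16 bases in EEF1B2 and 10 in EIF3D and EIF3F.

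Levels are read counts per gene after the libraries were brought to 1 upper quartile (scaled counts), and a log2 difference is that of log2(scaled count + 1), shMMP9 minus shControl. A gene is said to have risen or fallen when its adjusted p in limma, over all 17194 genes tested, was under 0.05. Over all genes tested 57.5% were called, 32.5% as lower and 25% as higher. Of the 13 members with a tract, 10 fell, 1 rose and 2 were not called, with a median log2 difference of -0.33. Of the 38 members with a listed start and no tract, 12 fell, 7 rose and 19 were not called, with a median of -0.07. The 10 with a tract that fell were EEF1A1, EEF1B2, EEF2, EIF2S3, EIF2S3B, EIF3D, EIF3F, EIF3M, EIF4A2 and EIF4B. EIF2A, with a tract, rose, and EIF2D and EIF3K, also with one, were not called. The other 13 members had no listed start, so whether they hold a tract is unknown. Among these, EEF1A2, EEF1D, EEF2KMT, EIF2AK1, EIF2S2, EIF3A, EIF3CL, EIF3E, EIF3H and EIF3L fell. EEF1AKMT1, EEF1AKMT3 and EIF3G, which also lack a listed start, were not called. A tract was found in 5.14% of all 27305 genes with a listed start, whether or not they were tested here. Among all 835 tested genes that hold one, 42% fell and 23.7% rose, against 33.4% that fell and 27.7% that rose of 10704 tested genes with a start and no tract. With the members left out of the genes with a tract, 41.5% of 822 fell and 24% rose. With cytosolic ribosomal protein genes left out as well, 43.1% of 775 fell and 23.2% rose. The search was made after the changes were known, and the difference between these sets of genes was not tested.

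Most EEF members fell in shMMP9, and EIF members were called in both directions. Of 13 EEF members 9 fell and 0 rose. At an unadjusted p under 0.05 in limma, and with limma-voom, 0 rose as well. Of all 17194 genes tested, 4655 rose and 5974 fell at that unadjusted p, and 4308 rose and 5523 fell with limma-voom. Of 51 EIF members 23 fell and 8 rose, against 32.5% and 25% of all genes. All 6 genes for the eEF1A, eEF1B and eEF2 proteins were among the 9 EEF falls. The others were EEF2K, which encodes a kinase, and EEF1AKMT4 and EEF2KMT, which encode methyltransferases.

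The median log2 difference was -0.32 for EEF members, -0.12 for EIF members and -0.05 for all genes tested. Since most members are strongly expressed, genes with a mean scaled count of 20 or more give a closer background: 35% of these fell and 31% rose. At that level 7 of 8 EEF members fell, and 20 of 45 EIF members fell while 7 rose. Under median-of-ratios and under total-read scaling, 19 EIF members fell and 12 rose, and 9 EEF members fell and 0 rose. Of all genes 28.4% then fell and 29.2% rose under the first of these scalings, and 28.5% fell and 29% rose under the second, as the median of all genes moved by 0.05 to 0. Without shControl replicate 1, 26 EIF members fell and 11 rose, and 9 EEF members fell and 0 rose. The share of all genes called without that library is not given, so these counts have no background beside them. Such counts describe the 2 families and do not test the difference between them.

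**Figure D1:**
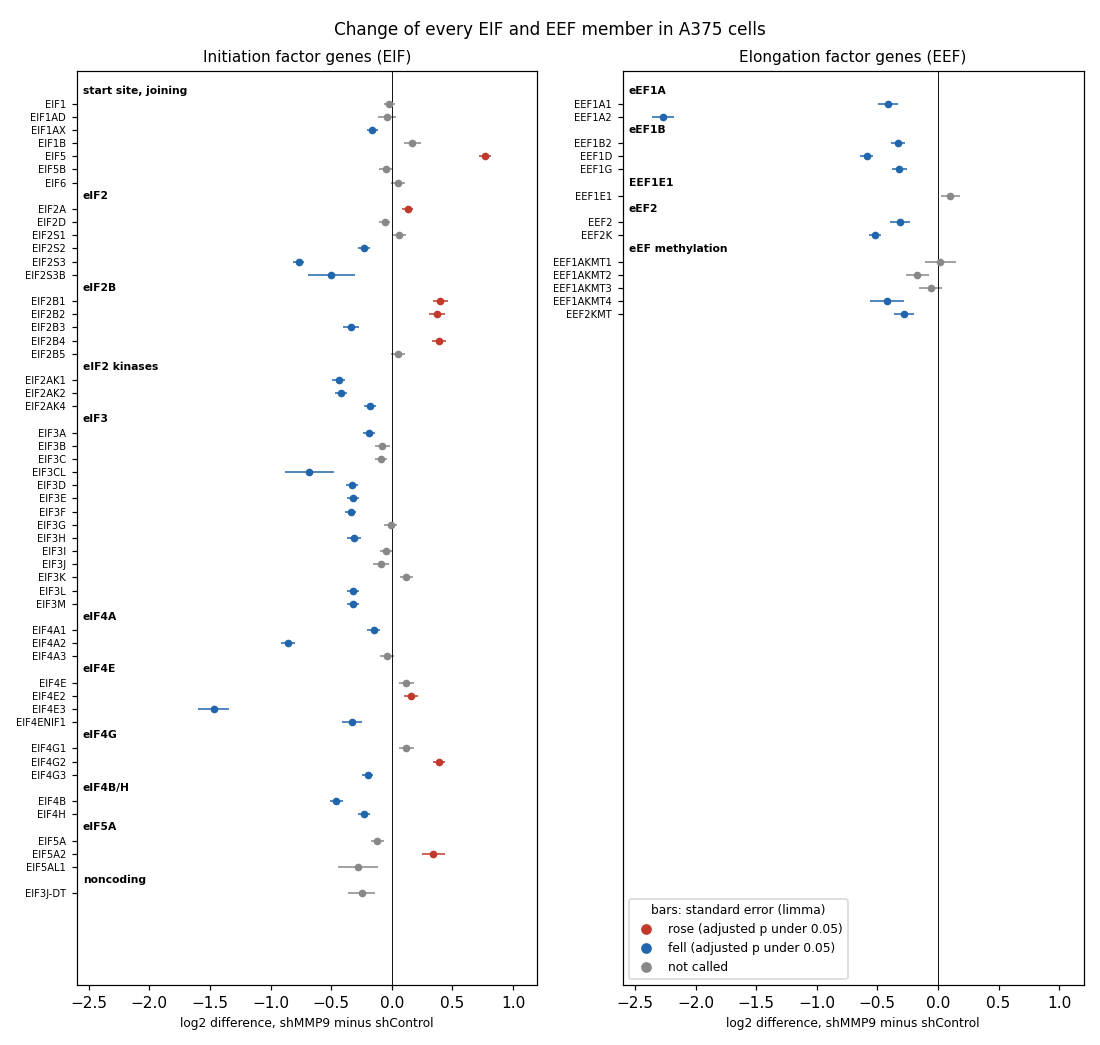
Log2 difference of every EIF (left) and EEF (right) member, shMMP9 minus shControl, with limma's standard error, grouped by complex. Of 13 EEF members 9 are blue (fell), and of 51 EIF members 23 are blue and 8 red (rose).

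**Figure D2:**
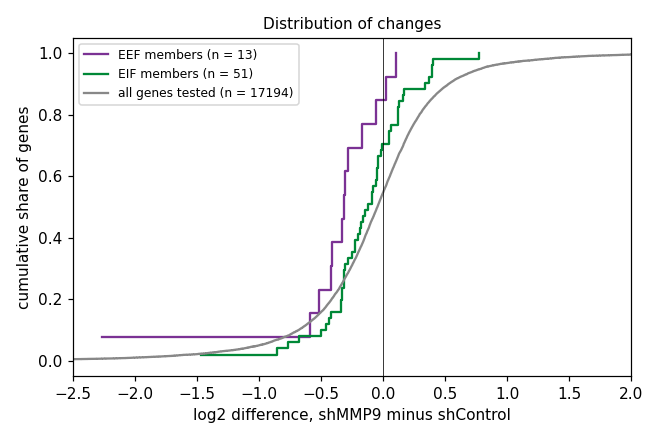
Cumulative share of genes by log2 difference, shMMP9 minus shControl, for 13 EEF members, 51 EIF members and 17194 genes tested. Through its middle and upper part the EEF line lies to the left of both others, with medians of -0.32 for EEF, -0.12 for EIF and -0.05 for all genes.

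Taken as shares of all estimated reads, EEF members held 1.45, 1.45 and 1.42% in the shMMP9 libraries and 1.79, 1.82 and 1.86% in the shControl libraries. EIF members held 1.39 ± 0.0173% in shMMP9 and 1.48 ± 0.0111% in shControl (SD, n = 3 each). Neither family's shares overlapped between the groups. EEF1A1 makes up most of the EEF reads, but the remaining EEF members also held less, at 0.60, 0.60 and 0.61% in shMMP9 and 0.69, 0.78 and 0.79% in shControl. In cultured cells measured in bulk, fewer cells that express a gene and less of its RNA per cell cannot be told apart.

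Per kilobase of annotated exon, EEF1A1 was the most abundant member, at a mean scaled count per kb of 1223 in shMMP9 and 1621 in shControl. The length joins all annotated exons of a gene, so ranks and percentages between genes depend on the transcripts annotated. EEF1A1 was followed by EEF2, at 753 in shMMP9 and 935 in shControl, and by EEF1G, at 585 in shMMP9 and 732 in shControl. EIF5A, which helps ribosomes through difficult peptide bonds, led the EIF genes at 407 in shMMP9 and 443 in shControl, ahead of EIF4A1 at 278 in shMMP9 and 308 in shControl. The scarcest members on this scale were EIF4E3, EIF2S3B and EIF5AL1, each under 1 in both groups.

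EEF1A1, which carries aminoacyl-tRNA to the ribosome, had scaled counts of 7371, 7425 and 7026 in shMMP9 and 9814, 9458 and 9646 in shControl. The groups did not overlap, and the log2 difference was -0.41 (SE 0.0826, adjusted p = 0.000898, limma). Of its distinct 50-base stretches 20.4% also occur in transcripts of other annotated genes, mostly the pseudogene EEF1A1P5, so its count may hold reads of copies.

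EEF1A2, the paralogue known from neurons and muscle, had a far lower value; the gene lies at chr20:63488012-63499322 on the minus strand (GRCh38, GENCODE 29). It had scaled counts of 69.9, 63.9 and 80.2 in shMMP9 and 300.1, 372 and 369.7 in shControl. The groups lay far apart, with the shMMP9 mean at 0.205 times that of the control (log2 difference -2.27, SE 0.088, adjusted p = 1.45e-10, limma). This was the largest fall of all 64 members on this scale, and it ran from -2.37 to -2.19 over all alternative settings. Per kb, EEF1A2 stood at 1.15, 1.04 and 1.38% of EEF1A1 in shMMP9 and at 3.70, 4.76 and 4.64% in shControl, a ratio that does not depend on scaling (2-sided exact permutation p = 0.1, the smallest that 3 against 3 libraries allow).

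The eEF1B genes encode the proteins that recharge eEF1A with GTP. EEF1D had scaled counts of 240.3, 233 and 240.3 in shMMP9 and 333, 382 and 365 in shControl (log2 difference -0.59, SE 0.0546, adjusted p = 7.95e-07, limma). EEF1B2 had 182, 191 and 180.0 in shMMP9 and 254, 219 and 223 in shControl, a log2 difference of -0.33. EEF1G, the scaffold of the complex, had 1613, 1558 and 1599 in shMMP9 and 1846, 2066 and 2055 in shControl, a log2 difference of -0.32. In all 3 genes the groups stood apart, beside 35.1% of all genes tested with shMMP9 below without overlap. EEF1G shares 94.7% of its 50-base stretches with the annotated gene AP002990.1, and EEF1B2 shares 31.4% with other genes, so both counts are less certain.

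EEF2, the translocase, had scaled counts of 3006, 2999 and 3089 in shMMP9 and 3300.3, 3951 and 4045 in shControl (log2 difference -0.31, SE 0.0826, adjusted p = 0.00613, limma). The groups did not overlap, but shControl replicate 1 was nearer to the shMMP9 libraries than the other controls were. EEF2K encodes the kinase that inhibits eEF2. It had 46.9, 46.2 and 45.6 in shMMP9 and 64.9, 69.8 and 65.6 in shControl, a log2 difference of -0.52 with no overlap. EEF1E1, which encodes a scaffold of the tRNA synthetase complex, had 24.5, 23.4 and 22.3 in shMMP9 and 24.0, 20.1 and 21.5 in shControl, with overlapping groups and an adjusted p = 0.31 (limma).

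Of 5 member genes for methyltransferases that modify elongation factors, EEF1AKMT4 and EEF2KMT fell. METTL13, a methyltransferase gene outside the symbol pattern, rose and is given with the related genes. EEF1AKMT4 had 6.83, 4.92 and 7.54 in shMMP9 and 7.55, 9.58 and 9.46 in shControl, so that the nearest libraries of the groups all but met. Its log2 difference of -0.42 had an adjusted p = 0.022 (limma), and the call ended without shControl replicate 2 or 3 or shMMP9 replicate 2 (adjusted p = 0.0719, 0.0821 and 0.106). EEF2KMT had a log2 difference of -0.28, and its call ended without shControl replicate 2 or shMMP9 replicate 1 (adjusted p = 0.0548 and 0.0718). EEF1AKMT1, EEF1AKMT2 and EEF1AKMT3 had log2 differences of 0.02, -0.17 and -0.06 and were not called. EEF1AKMT4 shares 24.5% of its 50-base stretches with the readthrough gene EEF1AKMT4-ECE2, and EEF2KMT shares 25.7% with other genes, among them FAM86C2P with 9.33%.

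**Figure D3:**
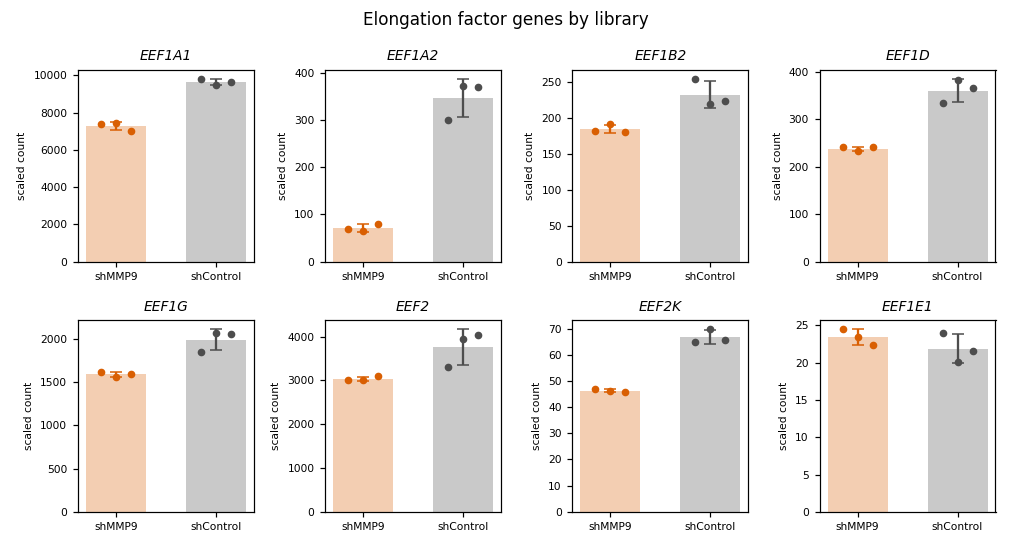
Scaled counts of 8 EEF genes in each library (points), with group mean (bar) and SD (error bar), shMMP9 left and shControl right in each panel. In the 7 panels other than EEF1E1 all shMMP9 points lie below all shControl points, and the ratio between groups is furthest from 1 for EEF1A2, at a mean of 71.3 in shMMP9 and 347 in shControl.

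Among initiation factors, the largest rise was that of EIF5 (chr14:103333544-103345025, plus strand), which makes eIF2 hydrolyse its GTP once the start codon is found. It had scaled counts of 207, 214 and 195 in shMMP9 and 123, 118 and 118 in shControl. The groups were well apart, at a mean 1.72 times that of the control (log2 difference 0.77, SE 0.0495, adjusted p = 2.25e-08, limma), and the value stayed between 0.74 and 0.83 in every alternative setting. The other start-site and subunit-joining genes moved little: EIF1, EIF1AD, EIF5B and EIF6 had log2 differences between -0.05 and 0.05 and were not called, and EIF1B had 0.17 (adjusted p = 0.0507, limma). The groups did not overlap for EIF1B, and a call was reached when shControl replicate 1 was left out (adjusted p = 0.00749), under both other scalings (adjusted p = 0.0106 and 0.0144) and with limma-voom (adjusted p = 0.0479). EIF1AX had -0.16 and was called lower, a call that ended under median-of-ratios scaling (adjusted p = 0.0808) and total-read scaling (adjusted p = 0.07).

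The 3 subunits of eIF2 had unlike values. EIF2S3, the X-linked gamma subunit that binds GTP and the initiator tRNA, had 295, 306 and 287 in shMMP9 and 494, 521 and 507 in shControl. The groups stood far apart (log2 difference -0.77, SE 0.0478, adjusted p = 1.57e-08, limma). EIF2S2, the beta subunit, had 226, 222 and 213 in shMMP9 and 266, 262 and 248 in shControl, a log2 difference of -0.23. EIF2S1, the alpha subunit that the stress kinases phosphorylate, had 112, 120.2 and 107 in shMMP9 and 109.5, 106 and 109.6 in shControl, with overlapping groups and an adjusted p = 0.322 (limma). Per kb, EIF2S3 stood at 428, 415 and 436% of EIF2S1 in shMMP9 and at 734, 803 and 753% in shControl (2-sided exact permutation p = 0.1, the smallest possible).

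EIF2S3 shares 18.1% of its 50-base stretches with EIF2S3B, a weakly expressed copy. EIF2S3B had 0.94, 0.634 and 0.887 in shMMP9 and 0.82, 1.66 and 2.47 in shControl, which overlap. It was called lower at an adjusted p = 0.0443 (limma) with 16 to 28 estimated reads per shMMP9 library and 23 to 66 per shControl library, and the call ended in 10 of 14 alternative settings, 5 of them with a single library left out, with adjusted p values up to 0.22. EIF2A and EIF2D encode proteins that can bring initiator tRNA without eIF2. EIF2A had 157, 159 and 159.6 in shMMP9 and 152, 142 and 141 in shControl (log2 difference 0.13, adjusted p = 0.0324, limma), a call that ended in 7 of the 14 settings, 5 of them with a single library left out (every library but shControl replicate 1, adjusted p = 0.0795 to 0.124). EIF2D had a log2 difference of -0.06 and was not called.

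The exchange factor eIF2B has 5 subunits, and 3 of its genes rose while 1 fell, beside 25% and 32.5% of all genes tested. EIF2B1 had 107, 104 and 96.6 in shMMP9 and 82.4, 78.6 and 72.4 in shControl (log2 difference 0.40, SE 0.0597, adjusted p = 7.92e-05, limma). EIF2B4 had 46.9, 47.9 and 48.2 in shMMP9 and 37.1, 36.4 and 34.9 in shControl, a log2 difference of 0.39. EIF2B2 had 53.9, 54.0 and 50.3 in shMMP9 and 44.2, 37.6 and 39.9 in shControl, a log2 difference of 0.37. These 3 encode the regulatory subunits that sense phosphorylated eIF2. In each the groups did not overlap, beside 27.6% of all genes tested with shMMP9 above without overlap. Of the catalytic subunits, EIF2B3 had 28.6, 28.2 and 29.8 in shMMP9 and 34.6, 36.4 and 39.5 in shControl (log2 difference -0.34, SE 0.0659, adjusted p = 0.000624, limma). EIF2B5 had a log2 difference of 0.05 and overlapping groups.

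Genes for 3 kinases of eIF2 were lower, beside 32.5% of all genes tested that fell. EIF2AK1, the haem-regulated kinase, had 91.7, 99.2 and 95.4 in shMMP9 and 134, 126 and 129 in shControl (log2 difference -0.44, SE 0.0499, adjusted p = 6.15e-06, limma). EIF2AK2, the double-stranded RNA sensor PKR, had 106, 106 and 98.8 in shMMP9 and 144, 135 and 139 in shControl, a log2 difference of -0.42. EIF2AK4, the amino acid sensor GCN2, had 108, 103 and 98.5 in shMMP9 and 112, 122 and 115 in shControl, a smaller difference of -0.18. In none of these 3 genes did the groups overlap, and 35.1% of all genes tested had shMMP9 below without overlap. The call for EIF2AK4 ended under median-of-ratios scaling (adjusted p = 0.0752) and total-read scaling (adjusted p = 0.061). It also ended without shMMP9 replicate 3 (adjusted p = 0.0539) and when limma used no variance trend (adjusted p = 0.0549).

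eIF3 is the largest initiation factor, a multi-subunit scaffold on the small ribosomal subunit. Of its 14 listed genes 8 fell and 0 rose in limma, beside 32.5% and 25% of all genes tested; at an unadjusted p under 0.05 EIF3K also passed as higher, and with limma-voom 0 rose. EIF3F, EIF3D, EIF3E, EIF3L, EIF3M and EIF3H fell by nearly equal amounts, with log2 differences of -0.34, -0.33, -0.32, -0.32, -0.32 and -0.31. EIF3F had 175, 176 and 168 in shMMP9 and 219, 223 and 218 in shControl (SE 0.0445, adjusted p = 2.17e-05, limma). In none of the 6 genes did the groups overlap, beside 35.1% of all genes tested with shMMP9 below without overlap. EIF3A, whose product is the largest subunit, had a log2 difference of -0.19. EIF3L shares 34.2% of its 50-base stretches with the annotated gene AL022311.1.

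The other eIF3 genes stayed closer to the control. EIF3B, EIF3G and EIF3I had log2 differences of -0.08, -0.01 and -0.05, EIF3J had -0.09 and EIF3K 0.12, and all were uncalled with overlapping groups. EIF3B was called lower when shControl replicate 1 was left out (log2 difference -0.16, adjusted p = 0.00331), and EIF3K was called higher without the same library (0.16, adjusted p = 0.00842) and under median-of-ratios (0.18) and total-read scaling (0.17). Differences between subunits were not tested.

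EIF3C and EIF3CL lie on chromosome 16 and share sequence. Of the 50-base stretches of EIF3CL 97.2% also occur in EIF3C, while 42.3% of those of EIF3C occur in EIF3CL. EIF3CL had 134, 134 and 149 in shMMP9 and 137, 281 and 291 in shControl, so that shControl replicate 1 lay among the shMMP9 libraries. Its log2 difference was -0.68 (SE 0.202, adjusted p = 0.0106, limma), it was -1.04 without shControl replicate 1, and the call ended without shControl replicate 3 (adjusted p = 0.0649) and when limma used no variance trend (adjusted p = 0.0652). EIF3C had 624, 628 and 616 in shMMP9 and 667, 675 and 639.9 in shControl, which do not overlap but were not called (log2 difference -0.09, adjusted p = 0.147, limma). Summed, the pair had 757, 762 and 766 in shMMP9 and 805, 955 and 931 in shControl, which do not overlap. The share of each gene in that sum is uncertain.

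**Figure D4:**
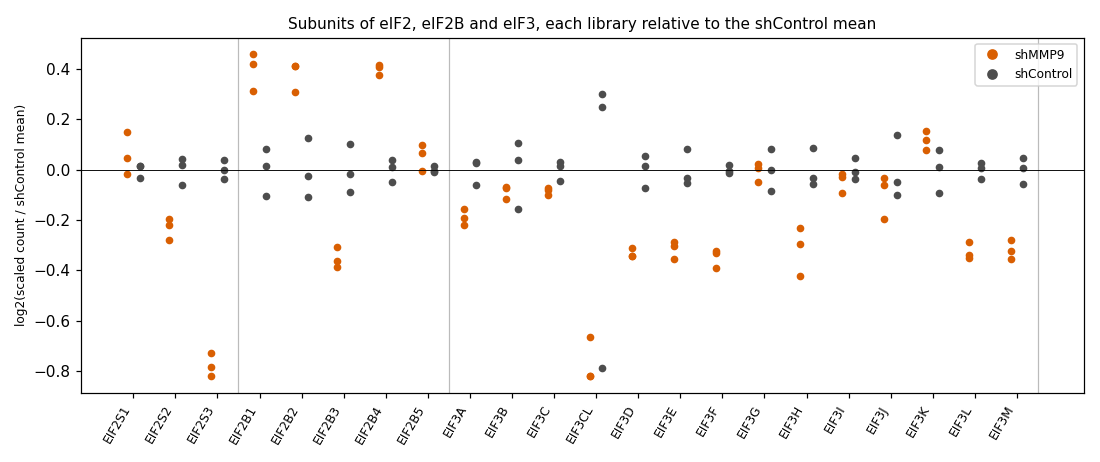
Level of each subunit gene of eIF2, eIF2B and eIF3 in each library as log2 of the ratio to the shControl mean, shMMP9 left and shControl right for each gene. Among eIF2 genes EIF2S3 lies furthest below 0, EIF2B1, EIF2B2 and EIF2B4 lie above it, and the shControl points of EIF3CL are split between replicate 1 and the other libraries.

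In the cap-binding complex, both main helicase genes were called lower, by unlike amounts. EIF4A2 had 124, 120.2 and 121 in shMMP9 and 243, 211 and 213 in shControl (log2 difference -0.86, SE 0.0568, adjusted p = 3.03e-08, limma), with a wide gap between the groups. EIF4A1, the more abundant helicase, had 1502, 1477 and 1451 in shMMP9 and 1641, 1685 and 1588 in shControl. Its log2 difference of -0.15 was called at an adjusted p = 0.0353 (limma), and the call ended in 9 of 14 alternative settings, among them both other scalings (adjusted p = 0.204 and 0.165), the replicate block (adjusted p = 0.101) and each single library left out other than shControl replicate 1 (adjusted p = 0.0514 to 0.109). EIF4A1 shares 33.8% of its 50-base stretches with the annotated gene AC016876.2. Per kb, EIF4A2 stood at 7.16, 7.06 and 7.20% of EIF4A1 in shMMP9 and at 12.8, 10.8 and 11.6% in shControl (2-sided exact permutation p = 0.1, the smallest possible). EIF4A3, the paralogue of the exon junction complex, had a log2 difference of -0.04 and was not called.

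The cofactors that stimulate eIF4A were lower too. EIF4B had 800.3, 793 and 754 in shMMP9 and 1053, 1057 and 1126 in shControl (log2 difference -0.46, SE 0.0537, adjusted p = 7.76e-06, limma), and EIF4H had a log2 difference of -0.23. In neither gene did the groups overlap, beside 35.1% of all genes tested with shMMP9 below without overlap. EIF4B shares 14.1% of its 50-base stretches with the pseudogene EIF4BP6.

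Among the scaffolds, EIF4G1 had 472, 465 and 487 in shMMP9 and 395, 468 and 450.1 in shControl, with overlap and an adjusted p = 0.11 (limma). A call as higher was made when shControl replicate 2 was left out (log2 difference 0.17, adjusted p = 0.0311) and under both other scalings (0.18 in each). EIF4G2, also called DAP5, which supports initiation without the cap-binding protein, had 536, 550 and 524 in shMMP9 and 398, 416 and 411 in shControl. It was higher by a log2 difference of 0.39 (SE 0.0471, adjusted p = 1.01e-05, limma), with no overlap. EIF4G3 had 137, 139 and 131 in shMMP9 and 161, 151 and 157 in shControl, a log2 difference of -0.20.

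The cap-binding protein gene EIF4E had 70.3, 68.8 and 63.7 in shMMP9 and 66.2, 61.7 and 58.5 in shControl, which overlap (log2 difference 0.12, adjusted p = 0.105, limma). The call was higher when shControl replicate 1 was left out (0.17, adjusted p = 0.0185) and under median-of-ratios (0.18, adjusted p = 0.0209) and total-read scaling (0.18, adjusted p = 0.0244). EIF4E2, which represses capped messages, had 65.3, 70.8 and 63.3 in shMMP9 and 60.8, 60.8 and 57.0 in shControl. Its log2 difference of 0.16 had an adjusted p = 0.0331 (limma), and the call ended without shControl replicate 3 (adjusted p = 0.131), without shMMP9 replicate 1 or 2 (adjusted p = 0.0692 and 0.156) and when limma used no variance trend (adjusted p = 0.091). EIF4ENIF1, which carries eIF4E into the nucleus, had a log2 difference of -0.33 with no overlap.

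EIF4E3, an atypical cap-binding protein, was named after its values were seen because its level was too low for the rule. It had 0.201, 0.159 and 0.332 in shMMP9 and 2.15, 2.34 and 2.73 in shControl. These correspond to 6, 4 and 9 estimated reads in shMMP9 and 60, 72 and 73 in shControl. EIF4E3 passed the filter on low counts only through the shControl libraries, where it was high. Its fall is counted among the 23 EIF falls and is not independent of that filter. The mean was 0.096 times that of the control, and the log2 difference of -1.47 (SE 0.129, adjusted p = 5.26e-07, limma) was -2.48 with a pseudocount of 0.25, -0.60 with a pseudocount of 4 and -3.33 with limma-voom.

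The hypusine-modified factor EIF5A had 1154, 1141 and 1146 in shMMP9 and 1242, 1256 and 1242 in shControl. The groups did not overlap, but the log2 difference of -0.12 was not called (adjusted p = 0.0591, limma), and it was called with limma-voom (adjusted p = 0.0171) and without shControl replicate 1 (adjusted p = 0.0118). EIF5A2, its scarce paralogue, had 10.3, 10.3 and 9.49 in shMMP9 and 7.98, 7.47 and 7.69 in shControl, a log2 difference of 0.34 (SE 0.0947, adjusted p = 0.00753, limma). Per kb it stood at 0.450, 0.455 and 0.417% of EIF5A in shMMP9 and at 0.323, 0.299 and 0.312% in shControl. The copy EIF5AL1 had a log2 difference of -0.28, and the noncoding EIF3J-DT one of -0.25, neither of them called. EIF5AL1 was called lower without shControl replicate 1 (adjusted p = 0.00887). EIF3J-DT was called lower without shControl replicate 2 or shMMP9 replicate 1 (adjusted p = 0.0497 and 0.0395).

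**Figure D5:**
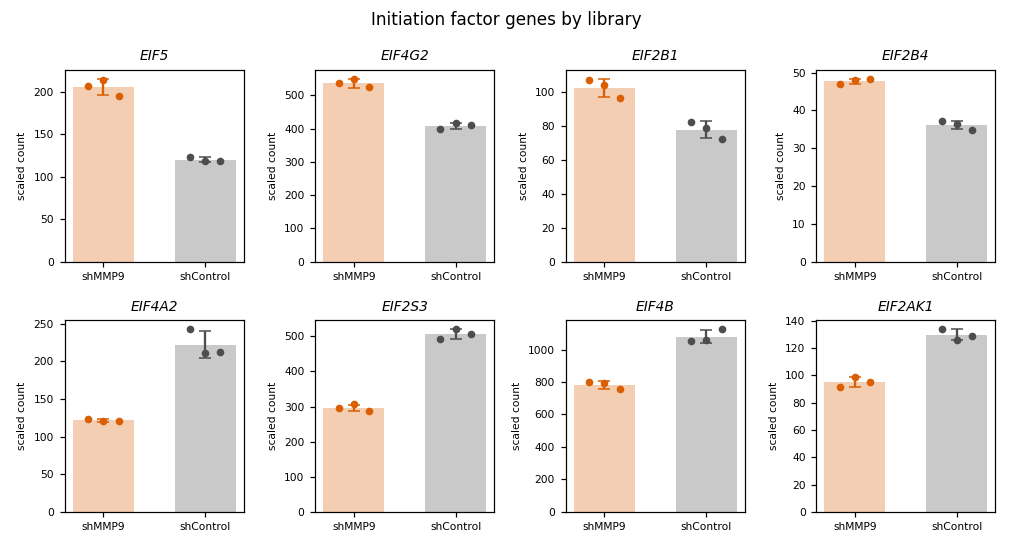
Scaled counts of 8 EIF genes in each library (points), with group mean (bar) and SD (error bar), shMMP9 left and shControl right in each panel. All shMMP9 points lie above the shControl points for EIF5, EIF4G2, EIF2B1 and EIF2B4, and below them for EIF4A2, EIF2S3, EIF4B and EIF2AK1.

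Across the 64 members, the groups did not overlap with shMMP9 below for 33 and with shMMP9 above for 9, against 35.1% and 27.6% of all genes tested. Those below were 24 EIF members and the 9 EEF members that fell. EIF2D, EIF3C and EIF5A (below) and EIF1B (above) did not overlap and were not called, while EIF2S3B and EIF3CL overlapped and were.

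Other genes of the pathway, in 7 lists drawn from textbook roles, stood near the background of 32.5% lower and 25% higher: of 54 tested, 18 fell and 15 rose, with a median log2 difference of -0.06. Among 11 regulators of the cap complex 2 rose and 4 fell. EIF4EBP2, which sequesters eIF4E, had 68.9, 71.7 and 63.3 in shMMP9 and 39.4, 43.3 and 41.9 in shControl (log2 difference 0.70, SE 0.0616, adjusted p = 5.45e-07, limma). Its paralogue EIF4EBP1 had 177, 172 and 193 in shMMP9 and 183, 215 and 198 in shControl, with overlap (adjusted p = 0.0841, limma). EIF4EBP1 was called lower without shControl replicate 1 (-0.19, adjusted p = 0.00511, limma) and without shMMP9 replicate 3 (-0.18, adjusted p = 0.0409, limma). The weakly expressed EIF4EBP3 had a log2 difference of -0.75. EIF4EBP1 and EIF4EBP3 are given because the symbol pattern left them out. CYFIP1, which binds eIF4E in a repressor complex, had -0.48, and MKNK2, a kinase that phosphorylates eIF4E, had -0.62. Chosen after their values were seen, the second such kinase gene MKNK1 had a log2 difference of 0.53, and LARP1, the TOP-binding protein, had a mean of 304 ± 3.14 in shMMP9 and 393 ± 13.7 in shControl (SD, n = 3 each; log2 difference -0.37, adjusted p = 1.63e-05, limma).

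Among 6 genes of the poly(A)-binding group 1 rose and 2 fell. PABPC1, which joins the tail of an mRNA to eIF4G, had 1053, 1062 and 1066 in shMMP9 and 1598, 1755 and 1797 in shControl (log2 difference -0.69, SE 0.0596, adjusted p = 4.21e-07, limma). Its inhibitor PAIP2 had a log2 difference of 0.37, and the close homologue PABPC3, whose reads may be shared with PABPC1, had -0.70. Of 11 initiation cofactors 3 rose and 4 fell, with the scanning helicase DHX29 at 0.57, the eIF2 phosphatase subunit PPP1R15A at -0.34, and IMPACT, an inhibitor of GCN2 signalling, at -1.01. Among the 3 that rose, the call for the helicase gene DDX3X ended without shMMP9 replicate 1 or 2 (adjusted p = 0.0583 and 0.0869) and when limma used no variance trend (adjusted p = 0.0766). Of 5 termination and rescue factors PELO, which rescues stalled ribosomes, had 0.50 and its partner HBS1L had -0.18. The HBS1L call ended in both other scalings and without shControl replicate 2 or 3 or shMMP9 replicate 1 or 3, and when limma used no variance trend (adjusted p = 0.0589 to 0.129).

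Of 10 enzymes that modify elongation factors 3 rose and 3 fell. The 3 that fell, DPH6, DPH7 and DPH5, act in the synthesis of diphthamide, the modified histidine of eEF2, and had log2 differences of -0.87, -0.68 and -0.53. In the same pathway, chosen after their values were seen, DPH2 and DPH1 rose, with 0.35 and 0.23. The other gene that rose, also named after its values were seen, was the methyltransferase gene METTL13. It had 110.3, 109 and 107 in shMMP9 and 78.9, 89.7 and 84.2 in shControl (log2 difference 0.36, adjusted p = 7.43e-05, limma). The DPH1 call ended without shMMP9 replicate 1 or 3 (adjusted p = 0.0683 and 0.0733) and when limma used no variance trend (adjusted p = 0.0526). Of 3 partners of the elongation factors, TPT1, itself a TOP mRNA, had 1376, 1399 and 1344 in shMMP9 and 1180.3, 1166 and 1219.6 in shControl, a log2 difference of 0.21, and the valyl-tRNA synthetase gene VARS had -0.25 with overlapping groups. The VARS call ended without shControl replicate 2 or 3, shMMP9 replicate 1 or 2, under both other scalings and when limma used no variance trend (adjusted p = 0.0729 to 0.126), and VARS had -0.38 without shControl replicate 1. The factors of mitochondrial translation, which are encoded separately, had 4 rises and 3 falls among 8, with the elongation factors GFM1 at 0.29 and TUFM at -0.20 and the initiation factor MTIF2 at -0.33. Of these calls, the fall of GFM2 ended in 10 of 14 alternative settings (adjusted p up to 0.233), the rise of MTRF1L in 8 (up to 0.166), and the rise of MTIF3 without shControl replicate 3 or shMMP9 replicate 2 (adjusted p = 0.0609 and 0.0507). With GFM2, MTRF1L and MTIF3 named here for that reason, the other calls of this list held in all 14 settings.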

How the data were processed

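RNA of A375 cells was sequenced in 6 libraries, grouped and numbered by their labels. The submitters' processing notes name STAR 2.6.1d, Partek and hg38. How reads were counted, with which annotation and strand setting, is not given in the sources used here. Values in the deposited table are log2 values, read as log2(scaled count + 1): linear values share an upper quartile of 45.3 to 45.4, and 64.6 to 67.7% per library are whole multiples of 1 step within 0.01 reads, which gave estimated reads.

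limma 3.58.1 (R 4.3.3, variance trend) tested the deposited log2 values with group as the only term and Benjamini-Hochberg adjustment over 17194 genes that had 10 estimated reads, at median depth, in at least 3 libraries and 15 in all. The script was checked on simulated counts. Libraries of 1 group differed beyond sampling noise (chi-square 2.48 to 13.3 per gene, highest for pairs with shControl replicate 1). Members and lists were chosen with earlier results of these data known. Values per library are given for 18 core genes and the largest changes at a mean scaled count of 5 or more, and for up to 3 genes per related list, with exceptions marked. One gene of the symbol pattern is not reported here. Exon lengths and 50-base stretches came from GENCODE 29 on GRCh38, and start sites from RefSeq on GRCh38.p14. Alternatives were a replicate block, leaving out each library, 2 other scalings, no filter, pseudocounts of 0.25 and 4, limma-voom on estimated reads, no variance trend and a threshold of 0.01.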

Additional observations from a re-analysis of the deposited data

How the results depend on the processing

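Of 40 called members, 31 kept their call under all 14 alternative settings and 9 lost it in at least 1, while 8 of 24 uncalled members gained one; no called value changed sign, and no value that gained a call did. The count of EEF members that rose was 0 in every setting and 7 to 9 fell. Between 19 and 26 EIF members fell and 6 to 12 rose over all settings; with single libraries left out, 20 to 26 fell and 6 to 11 rose. At a threshold of 0.01, 19 EIF members fell and 6 rose, and 7 EEF members fell. Shares over all genes are not given for this threshold, for single libraries left out or for the replicate block. The median log2 difference, -0.32 for EEF and -0.12 for EIF members, was -0.26 and -0.06 under median-of-ratios and again -0.26 and -0.06 under total-read scaling. With single libraries left out it was -0.37 to -0.29 for EEF, lowest without shControl replicate 1, and -0.15 to -0.12 for EIF. With the replicate number as a block, 9 EEF members fell, and 23 EIF members fell and 7 rose; EIF2A and EIF4A1 lost and EIF3J-DT gained a call. Same-numbered libraries did not deviate together (correlations of 0.04, -0.13 and -0.026), so the numbers were not taken to pair samples, and not every library correlated best with its own number. Groups of 3 libraries from 1 hairpin limit every value, and the values of genes with few reads, such as EIF4E3 and EIF2S3B, depend on the pseudocount.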
